A study of Mus musculus with 8 samples.

Results

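Levels of 10 genes linked to hepatic stellate cells and matrix were read in the livers of mice that carried a RagC mutation and of their wild-type counterparts. The 10 genes were chosen by name (*Lrat*, *Reln*, *Ecm1*, *Colec11*, *Col1a1*, *Col1a2*, *Col3a1*, *Sparc*, *Dcn* and *Bgn*), and all 10 were among the 14506 genes listed. This choice was made with earlier results of these data known. Livers came from 4 *Rragc*+/+ and 4 *Rragc* S74N/+ mice. *Rragc* encodes RagC, a GTPase that signals nutrient sufficiency to the growth-promoting kinase complex mTORC1, and *Rragc* S74N/+ mice carry a serine-to-asparagine substitution on 1 allele of every cell, knocked in by gene editing together with silent changes. *Rragc*+/+ replicates 1 to 3 and *Rragc* S74N/+ replicates 1 and 2 were 3 months old, *Rragc*+/+ replicate 4 and *Rragc* S74N/+ replicate 3 were 2.5 months old, and *Rragc* S74N/+ replicate 4 was 2 months old. The genotypes are called wild-type (*Rragc*+/+) and mutant (*Rragc* S74N/+) in what follows. RNA was made from whole liver tissue, no cells were sorted, and the sex of each mouse was not given in the labels. Which cells a level came from was therefore not measured.

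Hepatic stellate cells lie between the sinusoidal endothelium and the hepatocytes, where they store vitamin A as retinyl esters in lipid droplets. On chronic injury they lose these droplets, turn into contractile myofibroblasts and become the main source of the fibrillar collagen of a scarred liver. Fibrillar collagens are secreted as procollagens, and small leucine-rich proteoglycans such as decorin and biglycan bind to the fibrils and to growth factors held in the matrix.

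*Ecm1*, *Bgn* and *Col3a1* are shown with the stretch of RefSeq promoter sequence before their start site (GRCm38.p6, 250 bases, written on the strand of the gene), because *Ecm1* and *Bgn* had the lowest p-values among those of the 10 genes that were lower in mutant livers and *Col3a1* belonged to the pair of genes that varied most alike. Capitals mark matches, on either strand, to TATAAA, the core promoter box read by TFIID, or to GGGCGG, the box read by Sp1. The letters CCAAT were also searched for on both strands, as were the letters CACGTG, and neither was found in these 3 stretches.
Ecm1: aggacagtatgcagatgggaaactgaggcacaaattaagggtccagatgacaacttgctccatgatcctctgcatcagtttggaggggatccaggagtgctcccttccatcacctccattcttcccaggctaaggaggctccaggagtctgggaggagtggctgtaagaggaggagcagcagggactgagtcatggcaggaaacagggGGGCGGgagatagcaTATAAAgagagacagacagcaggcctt
Bgn: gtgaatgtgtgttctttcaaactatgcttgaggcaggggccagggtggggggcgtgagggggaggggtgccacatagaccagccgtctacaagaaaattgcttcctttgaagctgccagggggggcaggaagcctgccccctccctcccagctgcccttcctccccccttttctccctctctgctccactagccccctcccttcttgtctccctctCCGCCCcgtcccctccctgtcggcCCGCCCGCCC
Col3a1: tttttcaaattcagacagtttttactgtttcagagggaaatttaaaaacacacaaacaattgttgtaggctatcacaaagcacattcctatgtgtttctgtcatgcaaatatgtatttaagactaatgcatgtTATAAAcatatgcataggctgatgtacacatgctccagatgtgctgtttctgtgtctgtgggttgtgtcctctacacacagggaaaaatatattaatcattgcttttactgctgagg
The *Ecm1* stretch is chr3:95739570-95739819 on the reverse strand, and its TATAAA began 27 bases and its GGGCGG 42 bases before the start. The *Bgn* stretch is chrX:73483351-73483600 on the forward strand, with GGGCGG on the opposite strand at 34, 10 and 6 bases before the start, the last 2 overlapping each other. The *Col3a1* stretch is chr1:45311288-45311537 on the forward strand, with a single TATAAA 117 bases before the start. Among all 32851 promoters of the table, 12.4% held TATAAA and 32.7% held GGGCGG in the same 250 bases, and a match describes these letters and no binding. The table held 8 of the 10 genes and no entry for *Col1a1* or *Dcn*.

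Reads in listed genes numbered 4313076 to 6632108 per liver, and wild-type replicate 3 was the shallowest. The library kit primes from the poly(A) tail and counts each transcript at its 3′ end, which is why normalized counts are set beside each other between genes without division by length. *Alb*, which encodes the albumin of hepatocytes, was at 91226 ± 50784 in wild-type and 151424 ± 72479 in mutant livers (SD, n = 4 each). *Rragc* itself was at 84.1 ± 20.4 and 76.6 ± 7.32 normalized reads (SD, n = 4 each); the edit changes the protein and not necessarily the amount of its messenger. Among 11174 genes tested with limma, 1 passed an adjusted p of 0.05.

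To ask whether the S74N allele went with a different level of these genes, each was compared between genotypes. None of the 10 passed the threshold of 0.05 on the adjusted p of limma, against 0.00895% of all tested genes. At an unadjusted p under 0.05 there were 3 of 10, with *Col1a1* higher and *Ecm1* and *Bgn* lower in mutant livers, against 5.17% of all tested genes (2.37% higher and 2.8% lower). The count over all tested genes, 578, was 1682 without mutant replicate 3, 312 without mutant replicate 4 and 334 without wild-type replicate 1, and the count among the 10 was 3, 1 and 2. The same count was 3 with edgeR and 4 with DESeq2 on the recovered reads, against 5.53% and 6.04% of genes, and neither called any of the 10 after adjustment over all genes, where edgeR called 0.00895% and DESeq2 0.0895% of genes. The groups did not overlap for 2 of the 10, *Ecm1* and *Colec11*, both lower, against 2.94% of all tested genes in either direction and 1.64% in that direction. In direction alone 4 were higher and 6 lower, while 51.3% of all tested genes were higher, and the median log2 fold change was -0.08 against 0.01 over all tested genes. Since the 10 genes were chosen with earlier results of these data known, shares above those of all tested genes are descriptive and measure no enrichment.

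**Figure D1:**
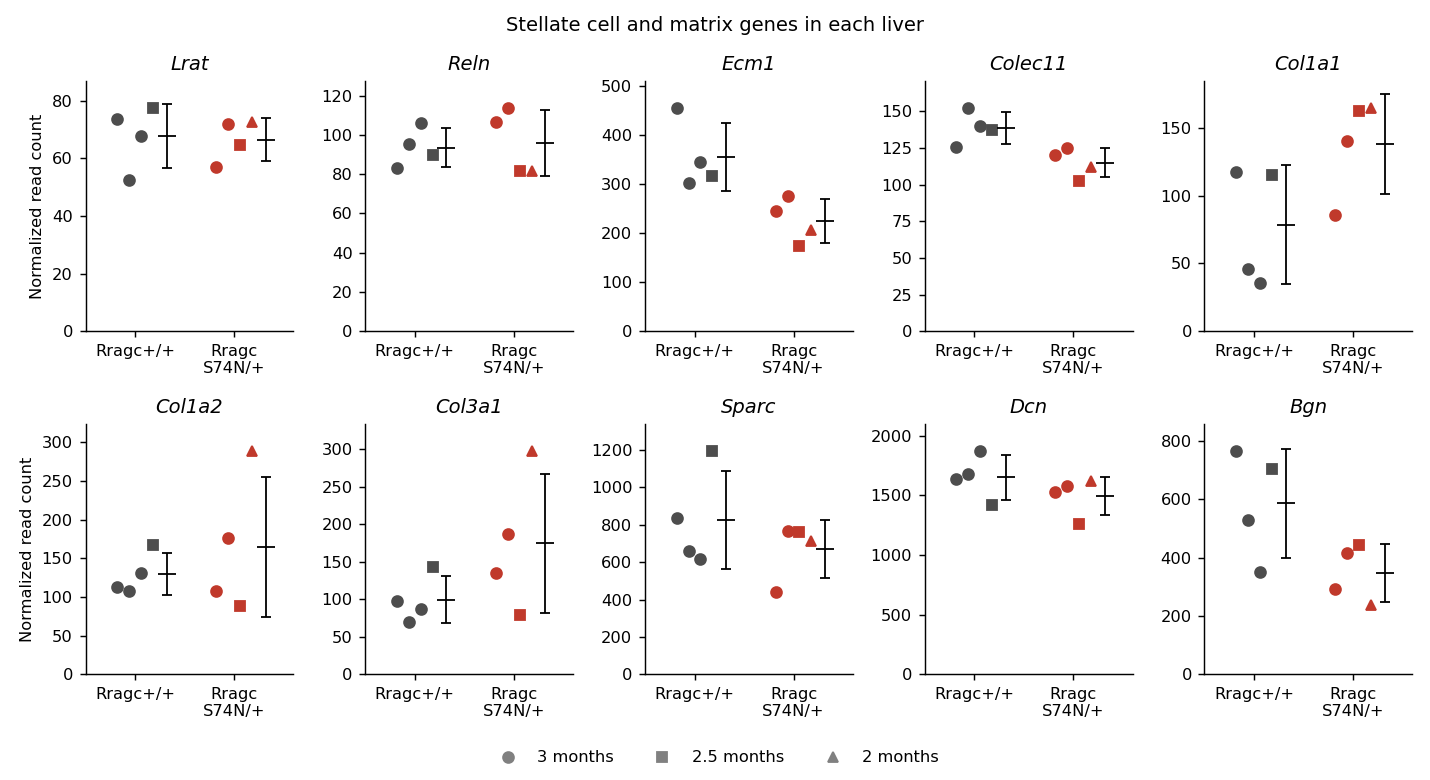
Normalized read count (y axis, from 0) of each of the 10 genes in each liver (points), by *Rragc* genotype (x axis, grey +/+ and red S74N/+) and age (point shape), with the mean and SD of 4 livers beside the points. The *Ecm1* points of mutant livers, 174 to 276, all sit under those of wild-type livers, 301 to 455, whereas the *Lrat* and *Reln* points of the genotypes overlap.

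*Lrat* encodes lecithin retinol acyltransferase, the enzyme that makes the retinyl esters stored in stellate cells (chromosome 3, 82892579 to 82903973, reverse strand of GRCm38). The wild-type livers held 73.6, 52.4, 67.9 and 77.5 normalized reads, and the mutant livers 56.9, 72.0, 64.6 and 72.6. The lowest and the highest liver were both wild-type, and every mutant liver lay between them. Between genotypes the log2 fold change was -0.02 with a 95% interval from -0.55 to 0.51 (limma adjusted p = 0.989), an interval that does not reach a doubling or a halving. In a bulk sample, fewer cells of a type and less RNA per cell cannot be told apart, and the same holds for every gene described here.

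*Reln* encodes reelin, a secreted glycoprotein best known from the developing brain and in liver made by stellate cells (chromosome 5, 21884454 to 22344702, reverse strand). Normalized counts per liver were 83.0, 95.4, 106 and 89.7 for the wild-type and 107, 114, 81.3 and 81.6 for the mutant genotype. Both 3-month-old mutant livers were above every wild-type liver, and both younger ones were below every one. The nearest margins were within counting error. Mutant replicate 1 was at 106.5 against 106.1 in wild-type replicate 3 (exact 95% Poisson interval 83.4 to 133). Mutant replicate 4 was at 81.6 against 83.0 in wild-type replicate 1 (66.6 to 102). *Reln* had a log2 fold change of 0.02, with an interval from -0.48 to 0.52 (limma adjusted p = 0.985).

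*Ecm1* encodes extracellular matrix protein 1, a secreted glycoprotein that in liver has been described as holding TGF-β1 in its latent form (chromosome 3, 95734147 to 95739569, reverse strand). Scaled reads were 455, 301, 344 and 317 in wild-type replicates 1 to 4 against 245, 276, 174 and 206 in mutant replicates 1 to 4, with 156 to 488 reads behind each. All 4 mutant livers were below all 4 wild-type livers, and the lowest were the 2 younger mutant mice. The means were 354 ± 69.5 and 225 ± 44.5 (SD, n = 4 each), a ratio of 0.635. The log2 fold change of -0.65 (standard error 0.22, 95% interval -1.13 to -0.17) had an unadjusted p of 0.0114 and did not pass adjustment (limma adjusted p = 0.846). The exact two-sided permutation p was 0.0286, the smallest that 70 labellings of 8 livers can give. The microRNA gene *Mir7014* overlaps an exon of *Ecm1* on the same strand, so that reads of the shared stretch cannot be told apart.

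*Colec11* encodes collectin 11, a soluble C-type lectin that starts the lectin pathway of complement (chromosome 12, 28594173 to 28623377, reverse strand). The wild-type livers held 126, 152, 140 and 137 normalized reads, and the mutant livers 120, 125, 103 and 112. The groups did not overlap, but the nearest livers, wild-type replicate 1 and mutant replicate 2, differed by less than 1 normalized count. Its coefficient of variation was 7.86% and 8.70% within the genotypes, close to the 8.58% that counting alone gives at its 92 to 163 reads. Between genotypes the log2 fold change was -0.27, with an interval from -0.72 to 0.17 (limma adjusted p = 0.846, exact two-sided permutation p = 0.0286).

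*Col1a1* encodes the alpha 1 chain of type I collagen, the main fibrillar collagen of scar (chromosome 11, 94936224 to 94953042, forward strand). Normalized counts per liver were 117, 45.8, 35.4 and 115 for the wild-type and 85.4, 140, 163 and 165 for the mutant genotype. The groups overlapped, since wild-type replicates 1 and 4 were above mutant replicate 1, and the other 3 mutant livers were above every wild-type liver. The means were 78.4 ± 43.9 and 138 ± 37.0 (SD, n = 4 each), a ratio of 1.76. Its log2 fold change of 0.96 (standard error 0.39, 95% interval 0.10 to 1.81) had an unadjusted p of 0.0307 (limma adjusted p = 0.846, exact two-sided permutation p = 0.114). The lowest value rested on 25 reads, for which the exact 95% Poisson interval, which covers counting error only, ran from 22.9 to 52.2 normalized reads.

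*Col1a2*, the gene of the alpha 2 chain that joins 2 alpha 1 chains in each type I collagen molecule, maps to chromosome 6 (4504814 to 4541544, forward strand). Scaled reads were 113, 108, 132 and 167 in wild-type replicates 1 to 4 against 108, 176, 88.0 and 289 in mutant replicates 1 to 4. Its highest and its lowest liver were both mutant, the 2-month-old and the 2.5-month-old mouse. The log2 fold change was 0.21, with an interval from -0.52 to 0.94 (limma adjusted p = 0.896), and without the 2-month-old mouse it was -0.10.

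*Col3a1* encodes the chain of type III collagen, which lies beside type I collagen in reticular fibers (chromosome 1, 45311538 to 45349706, forward strand). The wild-type livers held 97.9, 70.1, 87.7 and 143 normalized reads, and the mutant livers 135, 187, 79.1 and 298. The 2-month-old mouse was again the highest, mutant replicate 2 the next, and mutant replicates 1 and 3 lay within the range of the wild-type livers. The means were 99.7 ± 31.0 and 175 ± 93.1 (SD, n = 4 each), and the log2 fold change was 0.69 (standard error 0.37, 95% interval -0.10 to 1.48, limma unadjusted p = 0.0816, adjusted p = 0.846). On the recovered reads its unadjusted p was 0.0424 with edgeR and 0.0358 with DESeq2, with adjusted p of 0.812 and 0.791. Without the 2-month-old mouse the log2 fold change was 0.38. The annotated gene *Gm47302* shares exon sequence with *Col3a1* on the same strand, and reads of the shared stretch cannot be told apart.

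The 3 collagen chains did not keep a fixed ratio. *Col1a1* reads per *Col1a2* read were 1.04, 0.426, 0.269 and 0.687 in wild-type and 0.788, 0.798, 1.85 and 0.571 in mutant livers, so that the 2 chains of a single molecule differed in their ratio between livers of each genotype. *Col3a1* reads per *Col1a2* read were 0.868, 0.652, 0.667 and 0.855 in wild-type and 1.25, 1.06, 0.899 and 1.03 in mutant livers. This ratio was higher in all 4 mutant livers, although the levels of both genes overlapped between genotypes. Of the 45 ratios that the 10 genes form within a liver, 6 (13.3%) did not overlap between genotypes, against 3.08% of the ratios of all pairs of tested genes, and the 45 are not independent since each gene enters 9 of them. The ratios were chosen after their values were seen, so these shares are descriptive. *Bgn* reads per *Col1a1* read were 6.11 to 11.5 in wild-type and 1.44 to 3.41 in mutant livers, the ratio with the widest gap. The other 4 such ratios joined *Col1a1* with *Sparc*, and *Ecm1* with *Col3a1*, *Dcn* and *Reln*.

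*Sparc* encodes osteonectin, a collagen-binding protein of the matrix (chromosome 11, 55394500 to 55423183, reverse strand). Normalized counts per liver were 834, 659, 615 and 1193 for the wild-type and 441, 763, 762 and 713 for the mutant genotype. The groups overlapped, with wild-type replicate 4 high and mutant replicate 1 low. Between genotypes the log2 fold change was -0.29, with an interval from -0.84 to 0.27 (limma adjusted p = 0.851).

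*Dcn*, the decorin gene, maps to chromosome 10 (97479609 to 97518143, forward strand) and was the most abundant of the 10, with a mean level above that of 96.3% of tested genes. Scaled reads were 1635, 1681, 1870 and 1414 in wild-type replicates 1 to 4 against 1529, 1574, 1259 and 1617 in mutant replicates 1 to 4. Replicate 3 of each genotype held the extremes, the highest in wild-type and the lowest in mutant, and the groups overlapped. It had a log2 fold change of -0.14, with an interval from -0.53 to 0.25 (limma adjusted p = 0.874).

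*Bgn*, the biglycan gene, maps to chromosome X (73483602 to 73495933, forward strand). The wild-type livers held 764, 527, 351 and 703 normalized reads, and the mutant livers 291, 417, 441 and 237. Of the wild-type livers, replicate 3 alone lay within the range of the mutant livers. The means were 586 ± 186 and 346 ± 98.5 (SD, n = 4 each), a ratio of 0.591 and the lowest among the 10 genes. The log2 fold change of -0.74 (standard error 0.28, 95% interval -1.35 to -0.13) had an unadjusted p of 0.0210 (limma adjusted p = 0.846, exact two-sided permutation p = 0.0857). The *Dcn* to *Bgn* ratio of these related proteoglycans was 2.14, 3.19, 5.33 and 2.01 in wild-type and 5.25, 3.78, 2.85 and 6.83 in mutant livers, and the groups overlapped.

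**Figure D2:**
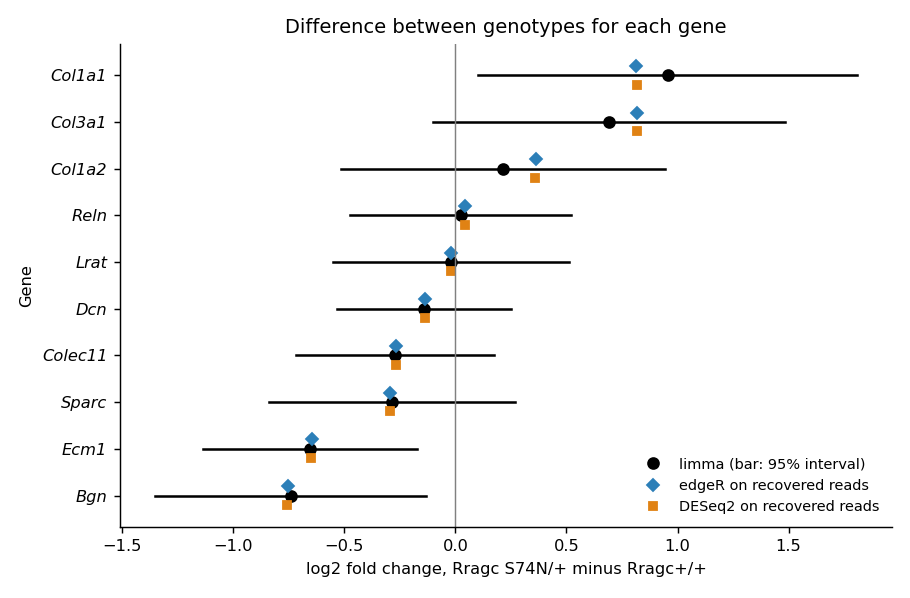
The log2 fold change of each gene (x axis, *Rragc* S74N/+ minus *Rragc*+/+) from limma on log2(normalized count + 1) with its 95% interval (black), and from edgeR (blue) and DESeq2 (orange) on recovered reads. The intervals of *Col1a1*, *Ecm1* and *Bgn* do not cover 0, but none of these 10 genes passed adjustment over all 11174 tested genes.

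Ages differed between the groups, so the 3-month-old mice, 3 wild-type and 2 mutant, were also compared alone. The log2 fold changes were -0.47 for *Ecm1*, -0.58 for *Bgn*, 0.91 for *Col1a1* and 0.90 for *Col3a1*, with standard errors of 0.27, 0.31, 0.45 and 0.31. Only *Col3a1* then had an unadjusted p under 0.05, at 0.0113 (limma adjusted p = 0.834). With age in months as a covariate they were -0.55, -0.70, 0.73 and 0.48, and *Ecm1* and *Bgn* had unadjusted p of 0.0377 and 0.0467 (limma adjusted p = 0.891 for both). The 4 genes kept their directions, and the 2.5-month-old pair, 1 mouse of each genotype, gave no test.

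Over the 8 livers, *Dcn* was the highest of the 10 genes, followed in mean level by *Sparc*, *Bgn*, *Ecm1*, *Col1a2*, *Col3a1*, *Colec11*, *Col1a1*, *Reln* and *Lrat*. *Dcn* at 1572 ± 182 shared no part of its range with *Sparc* at 748 ± 216, nor *Reln* at 94.7 ± 12.8 with *Lrat* at 67.2 ± 8.73 (SD, n = 8 each), and every other neighbouring pair overlapped in range. Together the 10 genes took 0.0544% to 0.0748% of the reads in listed genes.

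The median of the 45 pairwise correlations of log2 values over 8 livers was 0.09, and 25 of them were above 0. The highest was between *Col1a2* and *Col3a1*, at 0.90, and it was 0.95 on deviations from the genotype means and 0.76 over the 7 livers without the 2-month-old mouse. *Lrat* with *Sparc* (0.70), *Ecm1* with *Colec11* (0.69), *Bgn* with *Sparc* (0.67), *Ecm1* with *Bgn* (0.62) and *Dcn* with *Colec11* (0.62) were the other pairs above 0.6. *Col1a1* went the opposite way to *Colec11* (-0.78) and *Dcn* (-0.69). All points share the depth and scaling of their liver, and on deviations from the genotype means the 5 positive pairs just named came to 0.74, 0.15, 0.62, 0.18 and 0.49 in the same order, and the *Col1a1* pairs to -0.60 and -0.59. Other pairs were stronger on these deviations than over the 8 livers. They included *Col1a1* with *Sparc* (0.86 against 0.39) and with *Bgn* (0.70 against -0.01). *Reln* with *Colec11* (0.80 against 0.43) and *Dcn* with *Bgn* (-0.73 against -0.18) were 2 more. The mean of the 10 standardized profiles was most alike, among 6907 genes with a mean of at least 50, to those of *Fam53b* (0.92), *Mkl2* (0.92), *Dnajb14* (0.91), *Lrba* (0.88) and *Cib3* (0.88), where high values arise in part from picking the best of many genes over 8 livers.

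**Figure D3:**
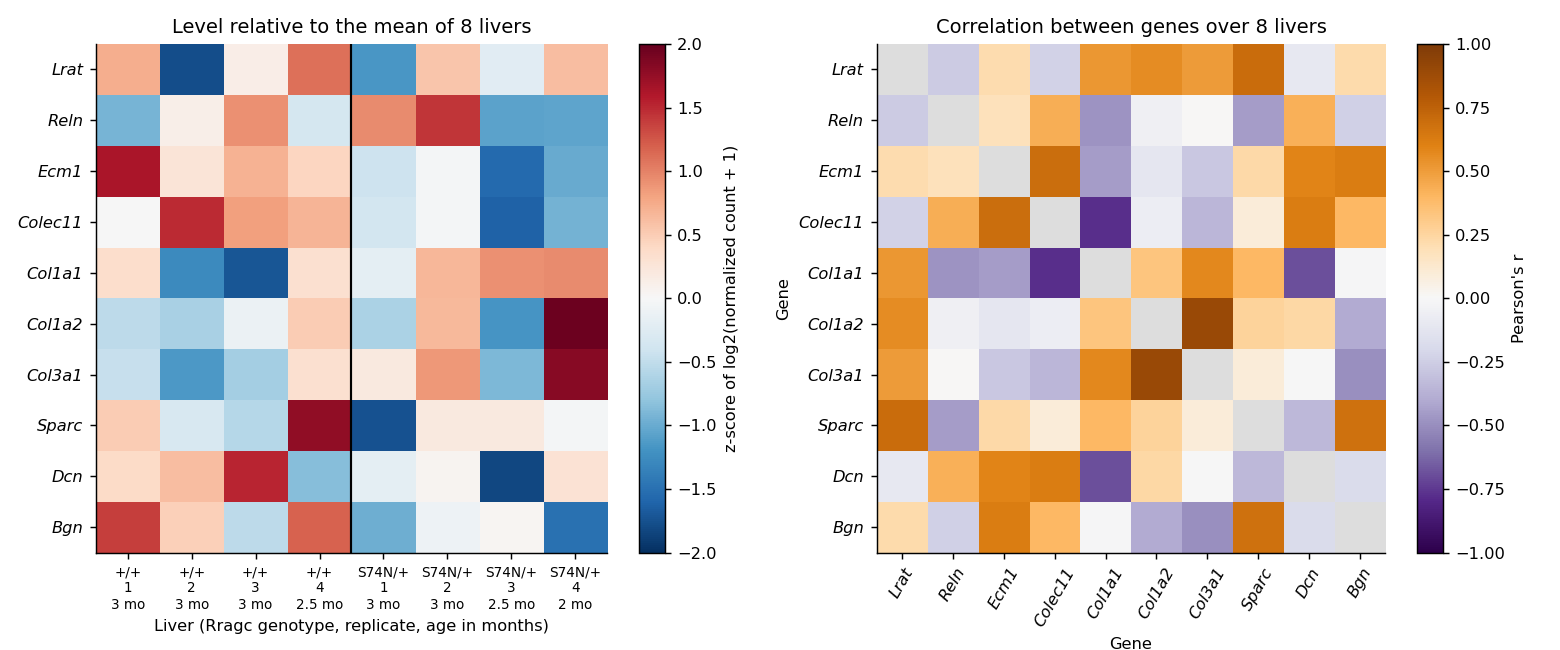
Left, the z-score of each gene's log2(normalized count + 1) over the 8 livers (columns, with genotype, replicate and age in months; black line between genotypes). Right, Pearson's r between each pair of genes over the 8 livers (grey on the diagonal), with the darkest orange at *Col1a2* and *Col3a1* (0.90) and the darkest purple at *Col1a1* and *Colec11* (-0.78).

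Related genes were read from 17 lists, in which none of 198 tested genes passed adjustment with limma. Of the 198, 20 (10.1%) had an unadjusted p under 0.05 and 4 (2.02%) did not overlap between genotypes, beside 5.17% and 2.94% of all tested genes. The lists were also chosen with earlier results of these data known, so these shares measure no enrichment.

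Among 25 tested genes of stellate cell identity, 12 were higher and 13 lower in mutant livers, and the median log2 fold change was -0.05. The most abundant were *Cxcl12*, a chemokine, at 733 ± 88.1 in wild-type and 939.6 ± 170 in mutant livers, and *Hsd11b1*, the cortisone reductase that hepatocytes also make, at 605 ± 217 and 781 ± 242 (SD, n = 4 each). *Ngfr*, the low-affinity nerve growth factor receptor, was at 52.3 to 88.6 in wild-type and 18.9 to 50.7 in mutant livers, which did not overlap (log2 fold change -1.08, standard error 0.33, limma adjusted p = 0.846). *Gfap* and *Tcf21* were not analysed here.

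Of the myofibroblast list, 9 of 11 tested genes were higher and the median log2 fold change was 0.42. *Acta2*, which encodes the smooth muscle actin of activated stellate cells and of vessel walls, was at 5.59 to 9.35 in wild-type and 15.6 to 49.8 in mutant livers, and the groups did not overlap. Its log2 fold change of 1.76 (standard error 0.50) did not pass adjustment (limma unadjusted p = 0.00392, adjusted p = 0.846). With a wild-type mean of 6.79, *Acta2* passed the filter on low counts only through mutant livers. *Vim*, the intermediate filament vimentin, was at 41.1 to 93.2 and 97.1 to 124 and did not overlap either (log2 fold change 0.60, limma adjusted p = 0.846). *Tagln*, a smooth muscle actin-binding protein, had a log2 fold change of 0.87 with overlapping groups. The abundant members *Tpm1* and *Lgals1* were at 177 ± 45.1 and 182 ± 81.3 in wild-type and at 205 ± 54.1 and 111 ± 52.9 in mutant livers (SD, n = 4 each).

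All 3 tested genes of the vessel wall smooth muscle list had a log2 fold change below 0, with overlapping groups and a median of -0.58. Of these, *Myh11*, with means of 12.4 in wild-type and 8.15 in mutant livers, passed the filter only through wild-type livers. *Mylk*, the myosin light chain kinase, was at 834 ± 82.6 and 567 ± 148 (SD, n = 4 each; log2 fold change -0.58, limma adjusted p = 0.846), *Myh11* had a log2 fold change of -0.74, and *Smtn* of -0.32. The 2 tested genes of portal fibroblasts and mesothelium, *Eln* and *Dpt*, were at 17.4 ± 2.51 and 33.7 ± 9.35 in wild-type and at 22.9 ± 18.7 and 27.8 ± 19.2 in mutant livers.

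In the matrix itself, 8 of 15 other collagen genes were higher, with a median of 0.06. *Col18a1*, a basement membrane collagen that hepatocytes make, was at 2740 ± 264 and 2712 ± 274 and exceeded every fibrillar collagen described above, and *Col14a1* was at 222 ± 35.2 and 229.8 ± 8.08 (SD, n = 4 each). The widest difference among them was in *Col5a2*, a minor fibrillar chain which was listed at 0 in a wild-type liver and ran from 0 to 10.3 in wild-type and 4.59 to 44.1 in mutant livers, and *Col15a1* followed at a log2 fold change of 0.75. Both had wild-type means under the filter mean of 10 (5.84 and 7.72) and were tested only through their mutant means (19.5 and 15.7). Of 14 proteoglycan genes 9 were higher, with a median of 0.16. The syndecans *Sdc4* and *Sdc2* were the most abundant. *Lum* (lumican, log2 fold change 1.34) and *Sdc3* (1.13) had the widest differences, and the groups overlapped for both. *Lum*, with a wild-type mean of 7.26, passed the filter only through mutant livers. Of 18 matrix glycoprotein genes 12 were higher, with a median of 0.20. *Vtn* (vitronectin) and *Fn1* (fibronectin), which hepatocytes secrete into plasma, were at 8400 ± 1002 and 1636 ± 301 in wild-type and 9670 ± 698 and 2010 ± 353 in mutant livers, and *Fbn1* (1.01) and *Nid2* (0.79) had the widest log2 fold changes.

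Matrix turnover and signaling were read from 3 lists. Among 17 collagen processing genes 8 were higher, with a median of -0.08. The chaperone and isomerase genes *P4hb* and *Ppib* were the most abundant. *Adamts2* (-1.29, standard error 0.98) and *Loxl1* (1.02, standard error 0.61) were the widest, with overlapping groups. *Adamts2*, with a mutant mean of 8.42, passed the filter only through wild-type livers. *Loxl1*, with a wild-type mean of 7.04, passed it only through mutant livers. Among 11 genes of matrix proteases and inhibitors 5 were higher, with a median of -0.05, *Timp2* and *Timp3* the most abundant, and *Serpine2* (-0.95) and *Adam17* (0.53) the widest. Among 21 genes of fibrogenic signaling 10 were higher, none had an unadjusted p under 0.05, and *Smad4* and *Ski* were the most abundant, while the receptors *Tgfbr3* (0.87) and *Tgfbr2* (-0.59) were the widest, the latter at -0.034 in 3-month-old mice and -0.13 without mutant replicate 3.

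Partners of *Lrat*, *Reln* and *Colec11* were read in the same way. Of 23 retinoid genes 14 were higher, with a median of 0.03. *Adh1* and *Rbp4*, the alcohol dehydrogenase and the plasma retinol carrier, were the most abundant, and *Cyp26a1*, which degrades retinoic acid, and the receptor *Rarb* had log2 fold changes of 1.36 and -0.95. The 4 tested genes of the reelin pathway had a median of 0.12, with *Crkl* and *Crk* the most abundant and *Vldlr*, a reelin receptor, at 6.56 ± 5.47 and 19.6 ± 26.2 (SD, n = 4 each). *Vldlr* passed the filter only through mutant livers. Of 7 lectin pathway genes 1 was higher, *Mbl2* (0.59, limma unadjusted p = 0.0295), while *Fcna*, the gene of ficolin A, was at 451 ± 123 against 239 ± 65.8 (SD, n = 4 each), which is -0.91 on the log2 scale (limma unadjusted p = 0.00603, adjusted p = 0.846). *Mbl1* and *Masp2* were the most abundant of the list.

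**Figure D4:**
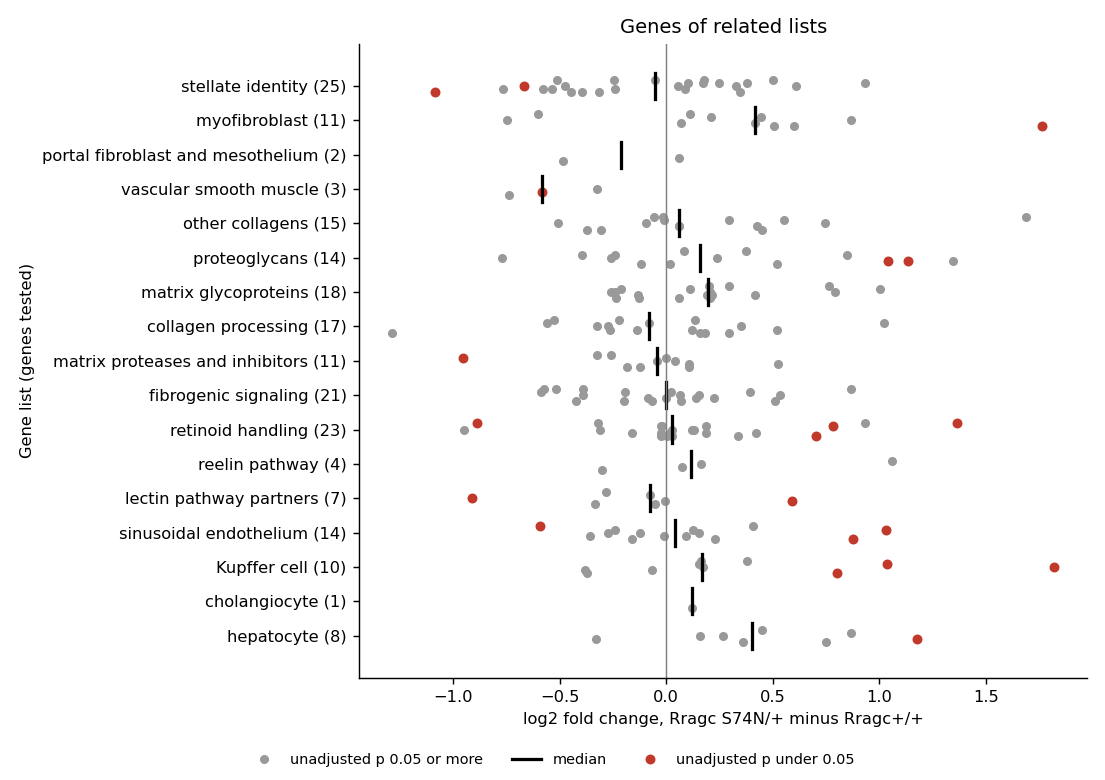
The log2 fold change (x axis, *Rragc* S74N/+ minus *Rragc*+/+) of every tested gene of 17 lists (y axis, number of tested genes in brackets), with the median of each list (black bar) and genes with an unadjusted limma p under 0.05 in red. The myofibroblast median lies at 0.42 with *Acta2* at 1.76 the farthest right of its list, and no gene in the plot passed adjustment over all tested genes with limma. *Acta2* passed the filter on low counts only through mutant livers.

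Markers of the other cells of the liver were measured beside these genes, and their part in the differences was not tested. No marker in the table was at 0 in every liver. Of 10 Kupffer cell genes 7 were higher, with summed levels of 3029 to 4771 in wild-type and 3056 to 5069 in mutant livers. *Marco*, a scavenger receptor, was at 20.5 to 25.5 and 37.9 to 125 (log2 fold change 1.82, limma adjusted p = 0.846, DESeq2 adjusted p = 0.00409), *C1qc* had a log2 fold change of 1.03, and *Csf1r* and *Cd5l* were the most abundant. Of 14 sinusoidal endothelium genes 7 were higher, with sums of 2784 to 3458 and 2621 to 3147, *Ptprb* and *Kdr* the most abundant, and *Lyve1* (1.03) and *Pecam1* (0.88) the widest. Of 8 hepatocyte genes 7 were higher, with sums of 218818 to 323354 and 237640 to 429284, *Alb* and *Ttr* the most abundant, and *Pck1* (1.18) and *Cps1* (0.87) the widest. The single tested cholangiocyte gene, *Sox9*, was at 235 ± 116 and 264 ± 123 (SD, n = 4 each). The summed levels of the stellate identity list were 3393 to 3858 and 3422 to 4206, and those of the myofibroblast list 459 to 893 and 558 to 806. Such sums weigh the most abundant genes most, in the stellate identity list *Cxcl12* and *Hsd11b1*, the latter also made by hepatocytes.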

How the data were processed

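Livers of 4 *Rragc*+/+ and 4 *Rragc* S74N/+ mice were grouped by the genotype in the labels, where replicate numbers merely name a mouse. The limma p-values set the difference between genotypes against the spread between livers of a genotype, which held mice of unequal age.

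The authors aligned 3′ end reads to GRCm38 (TopHat2 2.0.10, Bowtie 1.0.0, SAMtools 0.1.19), counted them by strand (HTSeq 0.6.1) and scaled the counts. The deposited signal is the resulting normalized count, given for 14506 genes. All values (100%, tolerance 0.001) were whole multiples of 1 read, so whole reads were recovered, 4313076 to 6632108 per liver over listed genes. They carry no molecular identifiers, so Poisson intervals cover counting error only.

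Genotypes were compared in R 4.3.3 with limma 3.58.1 (empirical Bayes, mean-variance trend) on log2(normalized count + 1). The 11174 genes whose mean reached 10 were tested, genotype was the single term, and p-values were adjusted by Benjamini-Hochberg over all tested genes at 0.05. This scale understates the fold change of genes with low counts. As alternatives, edgeR 4.0.16 (quasi-likelihood) and DESeq2 1.42.0 were run on recovered reads, and limma was rerun with a pseudocount of 0.1 or 5, without the filter, with a filter at 50, after TMM or upper-quartile rescaling, with an age term, in 3-month-old mice, and with each liver omitted. Exact permutation tests used all 70 labellings. Scripts were tested on simulated counts.

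The 10 genes and the lists were chosen with earlier results of these data known. From each list the text names the 2 genes of highest mean and the 2 with the widest log2 fold change, besides any past the threshold. A gene that this rule names is not reported here. *Vim* and the within-liver ratios were chosen after their values were seen. Likeness was Pearson's r with the mean z-score of the 10 genes. Coordinates are from GENCODE M21, next to the release used in the counting, and promoters from RefSeq.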

Additional observations from a re-analysis of the deposited data

Results flagged for a closer look

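Of 146 sets of 4 livers of a genotype examined for a liver far from the other 3 (Dixon's test at 95%), 13 stood out, where chance gives about 1 in 20, or 7.3. Among the 10 genes this was *Sparc*, at 441 in *Rragc* S74N/+ replicate 1 against 713 to 763 in the other 3 livers. *Rragc*+/+ replicate 3 had the fewest reads in listed genes, 4313076 against 6177759 to 6509465, and its *Alb* was at 166784 against 57178 to 72360. *Rragc*+/+ replicate 4 stood above the other 3 in 4 genes, with *Fbn1* at 42.0 against 5.59 to 8.49, *Tagln* at 69.1 against 9.32 to 13.1, *Col14a1* at 275 against 204 to 205, and *Sdc2* at 799 against 694 to 704. The same liver had the highest *Sparc* and *Lrat* of all 8. *Rragc*+/+ replicate 2 was high in *Fn1* at 2085 against 1444 to 1532, *Col18a1* at 3135 against 2581 to 2642, and *Kdr* at 650.0 against 427 to 450. Among *Rragc* S74N/+ livers, *Smtn* was at 76.4 in replicate 2 against 23.9 to 31.8, *Sox9* at 81.3 in replicate 3 against 310 to 335, and *Vldlr* at 58.7 in replicate 4 against 3.34 to 10.1.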

How the results depend on the processing

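None of the 10 genes passed the threshold under any of the 10 other settings or in the 8 fits with a liver omitted, and their smallest adjusted p was 0.253, for *Col3a1* without *Rragc* S74N/+ replicate 3. The count of all genes past the threshold, 1, became 10 with DESeq2, 0 with age as a covariate and 0 in 3-month-old mice alone, and 0 to 2 with a liver left out. In the Kupffer cell list 1 gene passed with DESeq2, *Marco* (log2 fold change 2.02, adjusted p = 0.00409), and 0 to 1 with a liver left out (without *Rragc* S74N/+ replicate 3, log2 fold change 2.18). Directions turned for *Col1a2* with age as a covariate (-0.0066), *Lrat* in 3-month-old mice (0.00070), *Eln* in both of these (-0.15 and -0.15) and *Nid2* in 3-month-old mice (-0.049). With a liver left out the log2 fold change ran from -0.10 to 0.46 for *Col1a2*, -0.14 to 0.052 for *Lrat*, -0.064 to 0.096 for *Reln*, -0.23 to 0.039 for *Rragc*, -0.41 to 0.43 for *Eln*, -1.54 to 0.092 for *Rarb* and -0.21 to 0.62 for *Sox9*. *Ecm1* stayed between -0.76 and -0.53, *Bgn* between -0.97 and -0.57, *Colec11* between -0.32 and -0.22, *Col1a1* between 0.64 and 1.21 and *Col3a1* between 0.38 and 1.02. The count of the 10 genes with an unadjusted p under 0.05, 3, was 1 without *Rragc* S74N/+ replicate 4 and 1 in 3-month-old mice. The median correlation ran from -0.02 without *Rragc* S74N/+ replicate 3 to 0.24 without replicate 4. The cause of these shifts was not tested. No paired analysis was possible because no label links a mouse of one genotype to a mouse of the other. With 4 livers a genotype, small differences could be missed. For *Col1a1*, at 25 to 202 reads, the coefficient of variation was 56.0% in *Rragc*+/+ and 26.7% in *Rragc* S74N/+ livers. Counting alone gives a median of 8.96% for this gene.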
